A study of Mus musculus with 2 samples.

Results

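A set of 7 genes of the tumour necrosis factor (TNF) superfamily were followed across the leukocytes of neonatal mouse skin. They were taken by symbol from the gene table of the deposited files, 7 of the 32285 genes listed there, and all 7 were found. The ligands are Tnf, Lta (lymphotoxin alpha), Ltb (lymphotoxin beta) and Tnfsf11 (RANK ligand). The receptors are Tnfrsf11a (RANK), Tnfrsf1a (TNF receptor type 1) and Tnfrsf1b (TNF receptor type 2).

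Ligands of this family are trimers made as membrane proteins, and TNF can also be shed from the cell surface by the protease ADAM17. TNF and the secreted lymphotoxin alpha trimer bind both TNF receptors, whereas lymphotoxin alpha joined to lymphotoxin beta stays on the membrane and binds the lymphotoxin beta receptor. RANK ligand binds RANK, a pair known for osteoclast formation and for the survival of dendritic cells. The receptors signal through adaptor proteins to the transcription factor NF-kB.

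Wild type C57BL/6 mice had received, every other day from postnatal day 4 to day 14, either anti-Gr-1 or an isotype control antibody. Anti-Gr-1 binds Ly6G and Ly6C, surface proteins of neutrophils and monocytes. Skin was taken on day 15 and digested with collagenase, and live CD45+ cells were sorted. Droplet-based single-cell RNA sequencing counted unique molecular identifiers (UMIs) at 3′ ends. Cells of 4 to 7 mice were pooled into 1 anti-Gr-1 library and 1 isotype control library, so there were no replicates and no difference between the libraries was tested.

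The genes Ltb, Tnf and Lta are neighbours on mouse chromosome 17 (build mm10, GENCODE annotation). Ltb lies on the plus strand at chr17:35194439-35196320, Tnf on the minus strand at chr17:35199381-35202007 and Lta on the minus strand at chr17:35203165-35205351. The group spans 10913 bases, with 1157 bases between Lta and Tnf and 3060 bases between Tnf and Ltb. Their upstream sequences are shown because Tnf differed from its neighbours Lta and Ltb in the cell classes that held its RNA. The stretches come from RefSeq (build GRCm38.p6), end just before the start of each gene and run 5′ to 3′ on its strand: chr17:35194257-35194438 for Ltb, chr17:35202008-35202257 for Tnf and chr17:35205352-35205601 for Lta. Capitals mark GGGNNNNNCC, a loose form of the site bound by NF-kB, searched on both strands.
Ltb: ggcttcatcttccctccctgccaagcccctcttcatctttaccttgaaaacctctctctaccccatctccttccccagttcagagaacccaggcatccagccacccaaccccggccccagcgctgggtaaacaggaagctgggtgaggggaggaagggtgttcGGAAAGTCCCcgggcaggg
Tnf: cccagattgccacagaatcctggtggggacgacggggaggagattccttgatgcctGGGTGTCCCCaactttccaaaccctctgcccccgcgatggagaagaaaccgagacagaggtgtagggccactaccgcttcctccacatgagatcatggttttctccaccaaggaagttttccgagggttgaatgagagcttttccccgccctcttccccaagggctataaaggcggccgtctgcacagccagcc
Lta: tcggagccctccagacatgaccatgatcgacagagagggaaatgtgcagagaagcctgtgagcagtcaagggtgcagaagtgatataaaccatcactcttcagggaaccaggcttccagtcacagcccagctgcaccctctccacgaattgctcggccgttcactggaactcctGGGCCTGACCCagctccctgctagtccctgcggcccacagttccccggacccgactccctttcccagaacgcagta
The printed stretch of Ltb held 1 match, and those of Tnf and Lta held 2 each, on opposite strands and overlapping. The stretch of Ltb has 182 bases and the others 250 bases, so these counts are not comparable. All 7 genes had a RefSeq promoter window of 300 bases that held the letters, as did 50.4% of the 27025 windows of all genes, and a match is only a description of the sequence. In these windows the forward and reverse matches were 2 and 3 for Ltb, 2 and 1 for Tnf and 1 and 1 for Lta. The other genes lie at chr14:78277445-78308043 on the minus strand (Tnfsf11), chr1:105780718-105847981 on the plus strand (Tnfrsf11a), chr6:125349362-125362484 on the plus strand (Tnfrsf1a) and chr4:145213463-145246870 on the minus strand (Tnfrsf1b).

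The libraries differed in more than the antibody. After filtering, 8047 anti-Gr-1 cells (median 8139 UMIs) and 19542 isotype control cells (median 4884 UMIs) remained, and 61 barcodes occurred in both libraries. Female cells, told by Xist against Y-linked genes, were 24.7% of the sexed anti-Gr-1 cells and 52.8% of the sexed isotype control cells. Cells were placed in 19 classes by marker genes, and each class name below stands for cells that are like that type by these markers only. Gated cells made up 81.9% of anti-Gr-1 and 64.5% of isotype control cells. Cells that passed the gates of more than 1 lineage were set aside as mixed, 3.83% of anti-Gr-1 against 12.0% of isotype control cells. The defining genes were part of the gates, so their levels describe the gates and are no independent check. In the isotype control library Cma1, a mast cell protease, had 24033 UMIs per 1000000 UMIs of the class (CPM) in mast cells. It had at most 56.4 CPM in any other class. Xcr1 had 407 CPM in type 1 dendritic cells and at most 18.9 CPM elsewhere. Other gate genes were less confined. Mgl2 had 1749 CPM in type 2 dendritic cells and 917 CPM in macrophages. Cd207 had 1850 CPM in Langerhans cells and 416 CPM in type 1 dendritic cells. Trdc, highest in dendritic epidermal T cells, had 139 CPM in anti-Gr-1 and 383 CPM in isotype control regulatory T cells. Conventional CD4 T cells had 15.5 CPM of it in anti-Gr-1 and 21.5 CPM in isotype control cells. The part of this difference in the ratios of regulatory T cells below was not tested. In the text, 9 classes with at least 100 cells in each library are called large and carry the comparisons. All intervals are at 95% and cover counting error only.

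Tnf, the founding ligand of the family, was found in lymphoid and myeloid classes alike. Among the large classes its level was highest in mast cells, the granulated cells of the dermis, at 315 CPM (293 to 338) in the anti-Gr-1 library and 300.3 CPM (278 to 324) in the isotype control library. Gamma-delta type 17 T cells, the interleukin-17 producers of the dermis, came next with 179 CPM (169 to 188) in the anti-Gr-1 library and 175 CPM (166 to 184) in the isotype control library. Macrophages had 113 CPM in anti-Gr-1 and 138 CPM in isotype control cells, and dendritic epidermal T cells, a resident gamma-delta population of the epidermis, had 90.4 CPM in anti-Gr-1 and 86.0 CPM in isotype control cells. Mature dendritic cells had 46.5 CPM in anti-Gr-1 and 122 CPM in isotype control cells. In the isotype control library their interval overlapped that of macrophages and lay above that of dendritic epidermal T cells. The intervals of mast cells, gamma-delta type 17 T cells and macrophages did not overlap one another in either library. At the low end, regulatory T cells had 23.7 CPM (17.5 to 31.5) in the anti-Gr-1 library and 33.0 CPM (27.1 to 39.8) in the isotype control library, and the interval of the Hlf Bmp2 Rora lymphoid cells, at 29.9 CPM in anti-Gr-1 and 32.9 CPM in isotype control cells, overlapped theirs in both. B cells had no Tnf UMI in either library, but with 16 anti-Gr-1 and 33 isotype control cells a count of 0 allows up to 43.0 CPM in anti-Gr-1 and 26.8 CPM in isotype control B cells. Tissue digestion can raise immediate early genes, and the summed level of 8 of them was also highest in mast cells (51984 CPM in anti-Gr-1, 47424 CPM in isotype control). Macrophages (17432 and 19415 CPM) were above gamma-delta type 17 T cells (9752 and 11488 CPM) in this sum, with less Tnf. The part of digestion in the order of Tnf levels was not tested.

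Langerhans cells, the dendritic-like macrophages of the epidermis, were too few for the large classes, with 65 anti-Gr-1 and 122 isotype control cells. Their Tnf level was above that of every large class in both libraries, with 502 CPM (454 to 553) in the anti-Gr-1 library and 701 CPM (653 to 752) in the isotype control library. They held 5.75% of the Tnf UMIs with 0.808% of the kept anti-Gr-1 cells, and 6.47% of the Tnf UMIs with 0.624% of the kept isotype control cells.

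**Figure D1:**
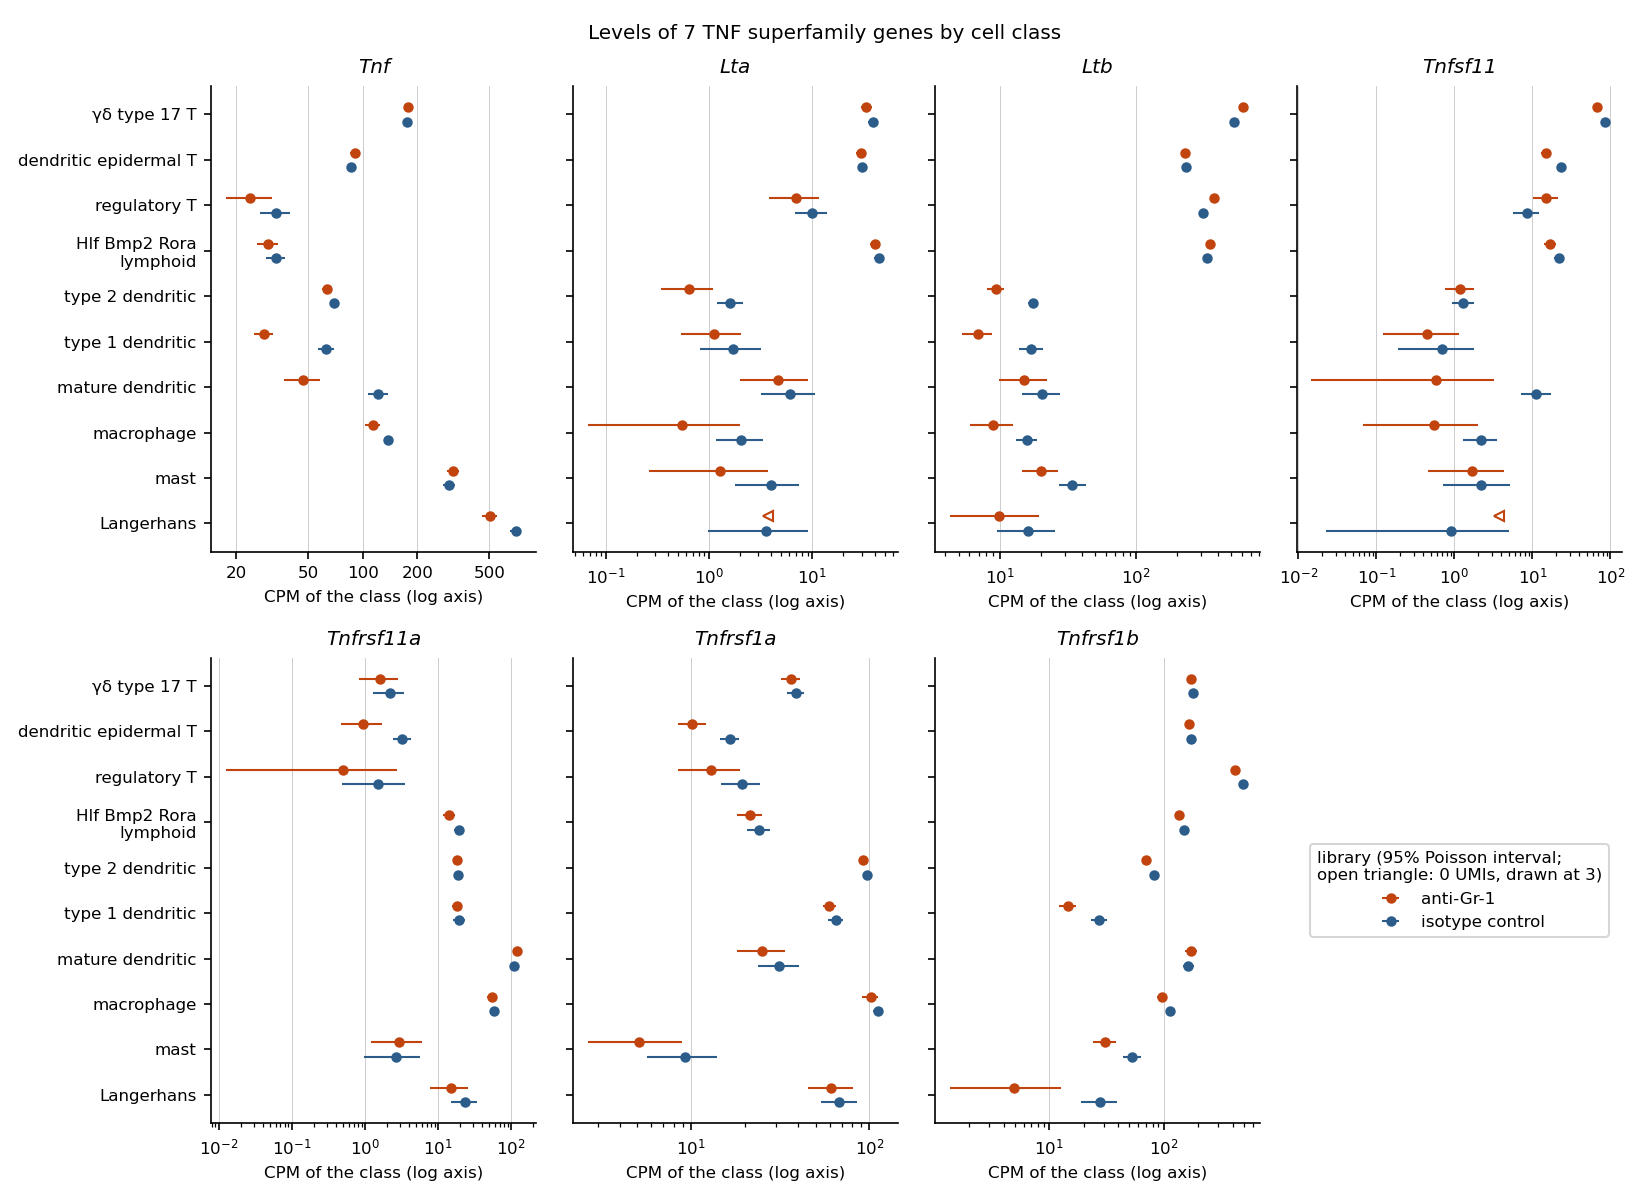
Level of each gene in CPM of the class (log axis) in the 9 large classes and in Langerhans cells, for the anti-Gr-1 library (upper point) and the isotype control library (lower point). Bars are 95% Poisson intervals, and open triangles stand for 0 UMIs, drawn at the level of 3 UMIs. Of the classes shown, Tnf was highest in Langerhans cells (502 CPM in anti-Gr-1 and 701 CPM in isotype control cells). Lta, Ltb and Tnfsf11 were high in lymphoid classes. Tnfrsf11a was highest in mature dendritic cells (121 CPM in anti-Gr-1 and 112 CPM in isotype control cells).

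How Tnf was spread over the cells of a class differed between classes. In gamma-delta type 17 T cells, 62.3% of anti-Gr-1 and 50.4% of isotype control cells had a Tnf UMI, and cells with at least 10 UMIs held 1.74% (anti-Gr-1) and 0.692% (isotype control) of the UMIs of the class. In Langerhans cells such cells held 74.5% (anti-Gr-1) and 72.5% (isotype control). Type 1 dendritic cells, known for cross-presenting antigen, had a Tnf UMI in 14.8% of anti-Gr-1 and 18.6% of isotype control cells, and cells with at least 10 UMIs held 48.6% (anti-Gr-1) and 44.5% (isotype control) of the UMIs. Tnf was thus found in most gamma-delta type 17 T cells at low counts, and in few type 1 dendritic cells, some of them at high counts. For scale, 8.99% of anti-Gr-1 and 12.3% of isotype control regulatory T cells, a class at the low end of the order, had a Tnf UMI, at median depths of 6052 (anti-Gr-1) and 4836 (isotype control) UMIs.

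The difference in depth moves such shares. Mast cells had a median of 5533 UMIs in the anti-Gr-1 library and 2382 UMIs in the isotype control library, and 62.6% (anti-Gr-1) and 39.1% (isotype control) of them had a Tnf UMI. After each cell was thinned to 1500 UMIs, which left out 5 anti-Gr-1 and 260 isotype control mast cells, the shares were 28.3% (anti-Gr-1) and 29.8% (isotype control). For gamma-delta type 17 T cells the thinned shares were 23.5% (anti-Gr-1) and 21.8% (isotype control).

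**Figure D2:**
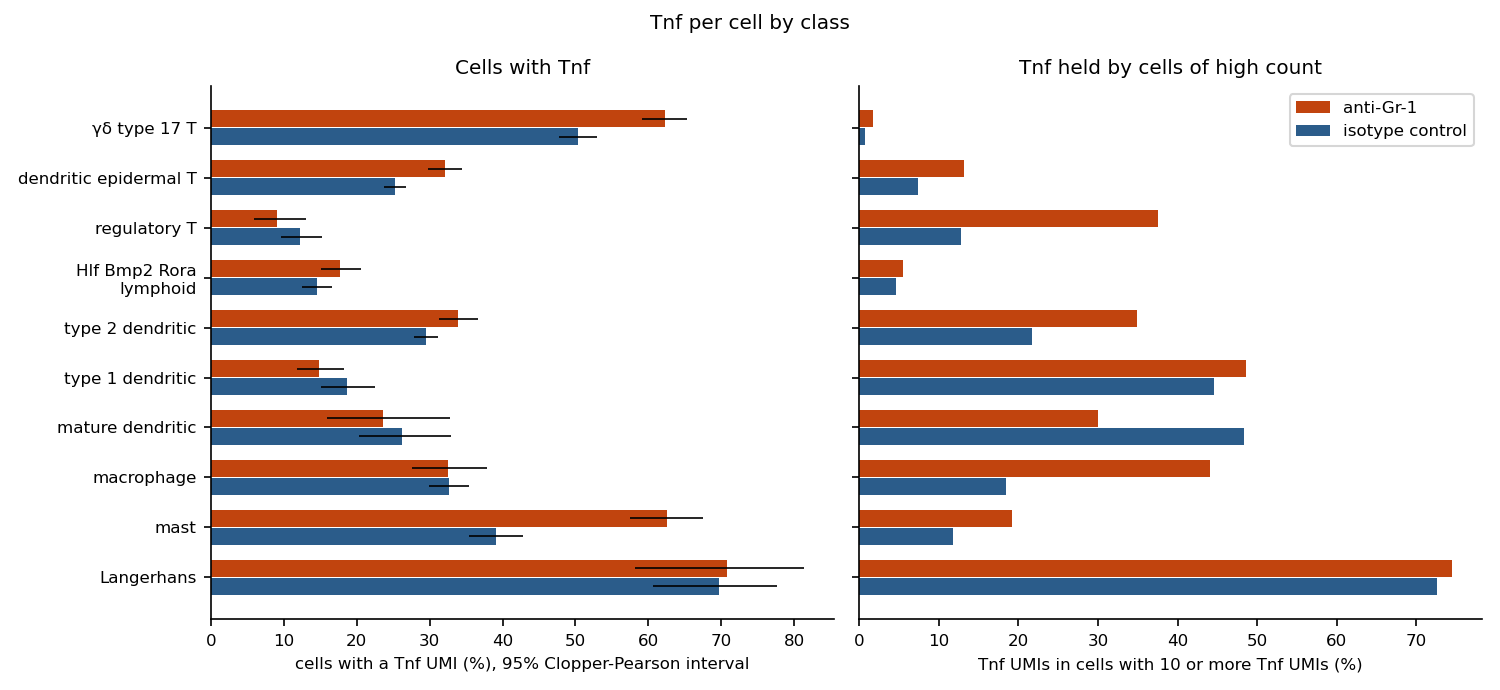
Left, share of cells with a Tnf UMI by class, with 95% Clopper-Pearson intervals. Right, share of the Tnf UMIs of a class that lay in cells with at least 10 Tnf UMIs. Anti-Gr-1 is above isotype control, shares are not thinned for depth, and in the right panel gamma-delta type 17 T cells are at 1.74% (anti-Gr-1) and 0.692% (isotype control) and Langerhans cells at 74.5% (anti-Gr-1) and 72.5% (isotype control).

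Lta and Ltb were highest in lymphoid classes in both libraries. Lta was highest in the Hlf Bmp2 Rora lymphoid cells, a class named by its genes, at 40.7 CPM (36.2 to 45.6) in the anti-Gr-1 library and 43.7 CPM (39.2 to 48.6) in the isotype control library. Gamma-delta type 17 T cells had 33.4 CPM in anti-Gr-1 and 38.6 CPM in isotype control cells and dendritic epidermal T cells 29.6 CPM in anti-Gr-1 and 30.02 CPM in isotype control cells, and the intervals of the Hlf Bmp2 Rora and gamma-delta type 17 classes overlapped in both libraries. Regulatory T cells were lower, at 6.93 CPM in anti-Gr-1 and 9.90 CPM in isotype control cells. In macrophages Lta had 2 UMIs in 332 anti-Gr-1 cells and 16 UMIs in 1135 isotype control cells, which is 0.554 CPM in anti-Gr-1 and 2.05 CPM in isotype control cells.

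Ltb was highest in gamma-delta type 17 T cells, at 615 CPM (597 to 633) in the anti-Gr-1 library and 528 CPM (512 to 544) in the isotype control library. Regulatory T cells had 376 CPM in anti-Gr-1 and 309 CPM in isotype control cells, Hlf Bmp2 Rora lymphoid cells 348 CPM in anti-Gr-1 and 332 CPM in isotype control cells and dendritic epidermal T cells 229.7 CPM in anti-Gr-1 and 233 CPM in isotype control cells. The large myeloid classes and mast cells had between 6.88 and 19.99 CPM in the anti-Gr-1 library and between 15.8 and 34.2 CPM in the isotype control library. A Ltb UMI was found in 89.1% of anti-Gr-1 and 80.8% of isotype control gamma-delta type 17 T cells, at median depths of 6848 (anti-Gr-1) and 5283 (isotype control) UMIs. In type 1 dendritic cells the shares were 6.24% (anti-Gr-1) and 9.31% (isotype control), at median depths of 16997 (anti-Gr-1) and 12662 (isotype control) UMIs. Among small classes, Ltb was 404 CPM in anti-Gr-1 and 288 CPM in isotype control cells for group 2 innate lymphoid cells and 401 CPM in anti-Gr-1 and 312 CPM in isotype control cells for B cells, in 31 (anti-Gr-1) and 40 (isotype control) group 2 innate lymphoid cells and 16 (anti-Gr-1) and 33 (isotype control) B cells.

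Tnfsf11, the ligand of RANK, was highest in gamma-delta type 17 T cells among the large classes, with 67.4 CPM (61.6 to 73.6) in the anti-Gr-1 library and 83.9 CPM (77.8 to 90.4) in the isotype control library. A UMI of it was found in 17.5% (anti-Gr-1) and 17.9% (isotype control) of these cells, against 0.780% (anti-Gr-1) and 0.887% (isotype control) of type 1 dendritic cells, whose depth was given above. Dendritic epidermal T cells had 14.996 CPM in anti-Gr-1 and 23.0 CPM in isotype control cells and Hlf Bmp2 Rora lymphoid cells 16.9 CPM in anti-Gr-1 and 22.1 CPM in isotype control cells, with overlapping intervals in each library. The 91 (anti-Gr-1) and 99 (isotype control) conventional CD4 T cells had 73.7 CPM (56.5 to 94.5) in the anti-Gr-1 library and 59.9 CPM (42.6 to 82.0) in the isotype control library.

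Of the receptors, Tnfrsf11a, which binds RANK ligand, was highest in mature dendritic cells, the Ccr7-expressing cells that migrate to lymph nodes. They had 121 CPM (106 to 139) in the anti-Gr-1 library and 112 CPM (97.2 to 127) in the isotype control library. Macrophages had 54.6 CPM in anti-Gr-1 and 59.4 CPM in isotype control cells. Type 1 dendritic cells (18.4 CPM in anti-Gr-1 and 19.3 CPM in isotype control cells), type 2 dendritic cells (18.2 CPM in anti-Gr-1 and 18.6 CPM in isotype control cells) and Hlf Bmp2 Rora lymphoid cells (14.3 CPM in anti-Gr-1 and 19.3 CPM in isotype control cells) followed, each overlapping its neighbour in the order. T cell classes were lower, with 12 (anti-Gr-1) and 18 (isotype control) UMIs in gamma-delta type 17 T cells (1.62 CPM in anti-Gr-1 and 2.18 CPM in isotype control cells) and 1 (anti-Gr-1) and 5 (isotype control) UMIs in regulatory T cells. Ligand and receptor were highest in different lineages in both libraries, Tnfsf11 in T cells and Tnfrsf11a in dendritic cells.

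Tnfrsf1a, a receptor for TNF and lymphotoxin alpha that carries a death domain, was highest in myeloid classes. Macrophages had 101 CPM (91.3 to 112) in the anti-Gr-1 library and 112 CPM (105 to 119.7) in the isotype control library. Type 2 dendritic cells had 92.6 CPM in anti-Gr-1 and 97.3 CPM in isotype control cells and type 1 dendritic cells 59.7 CPM in anti-Gr-1 and 64.7 CPM in isotype control cells. Gamma-delta type 17 T cells had 36.1 CPM in anti-Gr-1 and 38.6 CPM in isotype control cells, the highest among the large lymphoid classes. Of the large classes, mast cells were lowest, with 12 (anti-Gr-1) and 21 (isotype control) UMIs. These were 5.11 CPM in anti-Gr-1 and 9.21 CPM in isotype control cells. The order of the 9 classes was the same in both libraries.

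Tnfrsf1b is the TNF receptor without a death domain. Among the large classes, to which the order here is limited, it was highest in regulatory T cells, where it is a known marker. They had 418 CPM (389.9 to 447) in the anti-Gr-1 library and 489.8 CPM (466 to 514) in the isotype control library, and 88.4% (anti-Gr-1) and 85.4% (isotype control) of them had a UMI. Mature dendritic cells (173 CPM in anti-Gr-1 and 164 CPM in isotype control cells), gamma-delta type 17 T cells (172 CPM in anti-Gr-1 and 181 CPM in isotype control cells) and dendritic epidermal T cells (166 CPM in anti-Gr-1 and 173 CPM in isotype control cells) came next, and neighbours among them overlapped in their intervals. Type 1 dendritic cells were lowest, at 14.5 CPM in anti-Gr-1 and 27.4 CPM in isotype control cells, and 16.6% (anti-Gr-1) and 19.1% (isotype control) of them had a UMI. Type 2 dendritic cells had 70.3 CPM in anti-Gr-1 and 81.5 CPM in isotype control cells.

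Seen from the side of the transcripts, 37.5% of all Tnfsf11 UMIs in the anti-Gr-1 library and 35.4% in the isotype control library lay in gamma-delta type 17 T cells, which were 12.6% (anti-Gr-1) and 7.43% (isotype control) of the kept cells. Of the Ltb UMIs these cells held 32.2% (anti-Gr-1) and 23.9% (isotype control). Type 2 dendritic cells held 43.3% (anti-Gr-1) and 36.5% (isotype control) of the Tnfrsf1a UMIs and 29.0% (anti-Gr-1) and 25.6% (isotype control) of the Tnfrsf11a UMIs, with 15.6% (anti-Gr-1) and 14.8% (isotype control) of the cells. Mature dendritic cells held 16.5% (anti-Gr-1) and 10.0% (isotype control) of the Tnfrsf11a UMIs with 1.32% (anti-Gr-1) and 1.03% (isotype control) of the cells. Tnf was more evenly spread: gamma-delta type 17 T cells held 18.8% (anti-Gr-1) and 11.9% (isotype control) of its UMIs, type 2 dendritic cells 18.1% (anti-Gr-1) and 17.0% (isotype control) and dendritic epidermal T cells 14.9% (anti-Gr-1) and 12.0% (isotype control). Mixed cells held 5.71% (anti-Gr-1) and 14.1% (isotype control) of the Tnf UMIs.

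**Figure D3:**
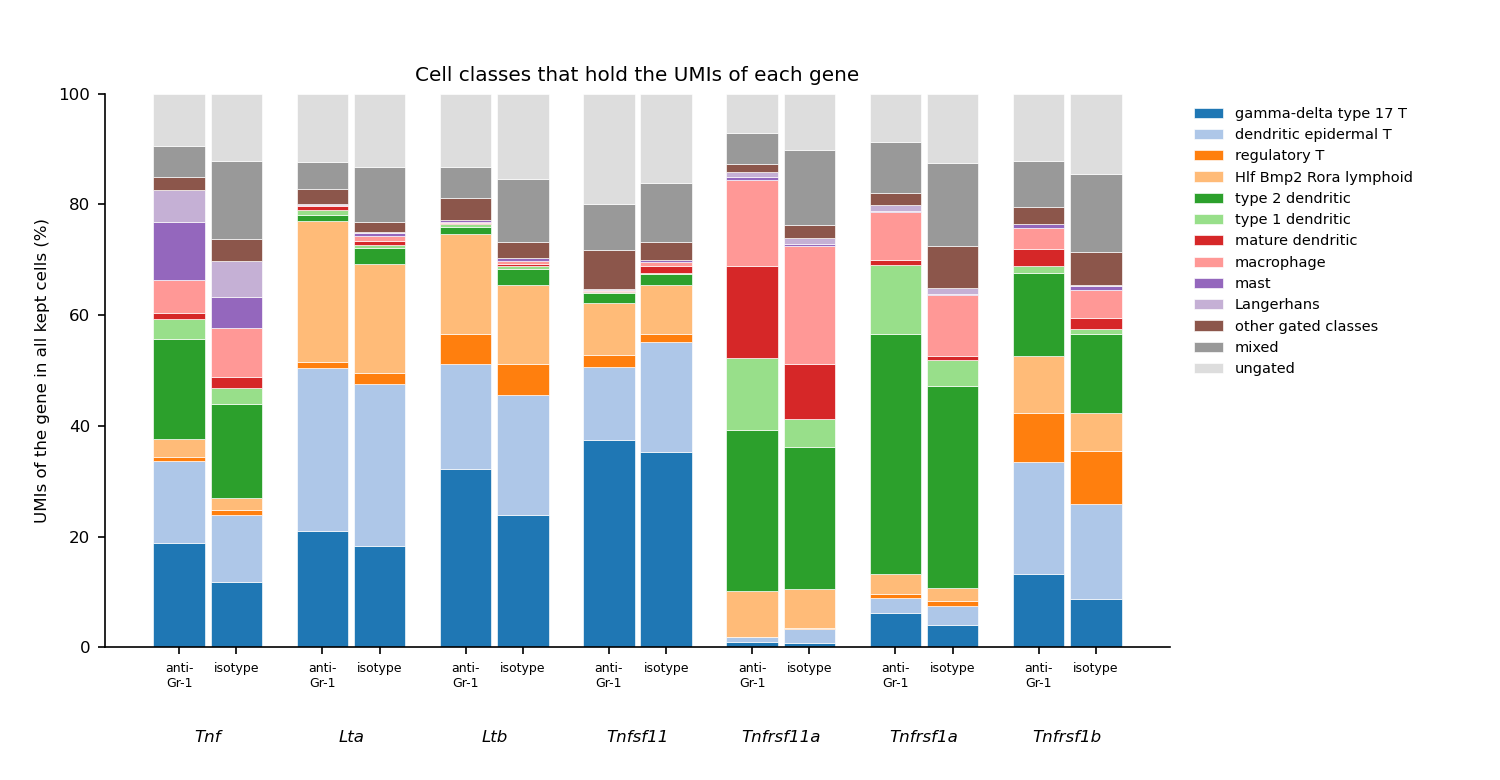
Share of the UMIs of each gene that came from each class, in all kept cells, with the anti-Gr-1 bar left of the isotype control bar for each gene. Gamma-delta type 17 T cells held 37.5% (anti-Gr-1) and 35.4% (isotype control) of Tnfsf11, and type 2 dendritic cells held 43.3% (anti-Gr-1) and 36.5% (isotype control) of Tnfrsf1a.

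For all 7 genes the class of highest level among the 9 large classes was the same in both libraries. Spearman's rho of the class levels between the libraries lay between 0.85 for Tnfsf11 and 1.0 for Tnfrsf1a, over 9 classes that share their libraries, depth and gates. Across these classes Lta went with Ltb (Pearson r of log2(CPM + 5) 0.89 and 0.91 in the anti-Gr-1 and isotype control libraries), and Ltb with Tnfsf11 (0.94 and 0.83). Tnf, although it lies between Lta and Ltb in the genome, had r of -0.05 and -0.21 with Lta and -0.07 and -0.30 with Ltb. Within gamma-delta type 17 T cells of the anti-Gr-1 library, Lta was found in 18.9% of the cells with Tnf and 18.3% of those without, at median depths of 6851 and 6839.5 UMIs. In the isotype control library the shares were 18.6% and 14.7%, at 5429 and 5060.5 UMIs.

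The comparison between the libraries asks whether these sources and receivers had other levels after treatment with the antibody. Of the 63 pairs of gene and large class, 56 had at least 20 UMIs over both libraries, and 16 of these (28.6%) differed at least 1.5-fold. Over all genes of the same classes 14.9% of pairs did, 3.06% higher and 11.8% lower. Of the 16 pairs, anti-Gr-1 cells had the higher level in 1 and the lower level in 15. The ratio of CPM was below 1 in 47 of the 56 pairs, while the median log2 ratio of all genes lay between -0.15 and -0.03 by class. Ratios below 1 were thus common over all genes as well. The share of all gene pairs below 1 is not given, so the count of 47 has no direct reference.

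Most of these differences lay where the gene was scarce. The lowest level of each gene among the 9 classes was taken as a reference for low values, which free RNA in the droplets can reach. For all 7 genes the anti-Gr-1 library had the lower value, with ratios from 0.330 for Tnfrsf11a to 0.721 for Tnf. Some of these values rest on few UMIs. That of Tnfrsf11a came from 1 anti-Gr-1 and 5 isotype control UMIs (interval of the ratio 0.00697 to 2.95), and that of Tnfsf11 from 4 UMIs in each library. For Lta the lowest class differed, macrophages with 2 UMIs in the anti-Gr-1 and type 2 dendritic cells with 48 UMIs in the isotype control library. Over 10356 genes found in every large class the median of that ratio was 0.844, and it was below 1 for 7893 of them. Of the 18 pairs under 3 times the lowest level in both libraries, 12 were at least 1.5-fold lower (66.7%, where 11.6% of all gene pairs so placed differed). These 18 pairs include some that set the lowest level of their gene, such as Ltb and Tnfrsf1b in type 1 dendritic cells. The share of 66.7% thus repeats in part the lower values above. Of the 32 pairs at 3 times that level or more in both libraries, 2 differed at least 1.5-fold (6.25%, against 18.1% of all gene pairs). Of the 6 other pairs 2 were lower (33.3%, against 23.4%). The part of free RNA in these ratios was not tested.

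**Figure D4:**
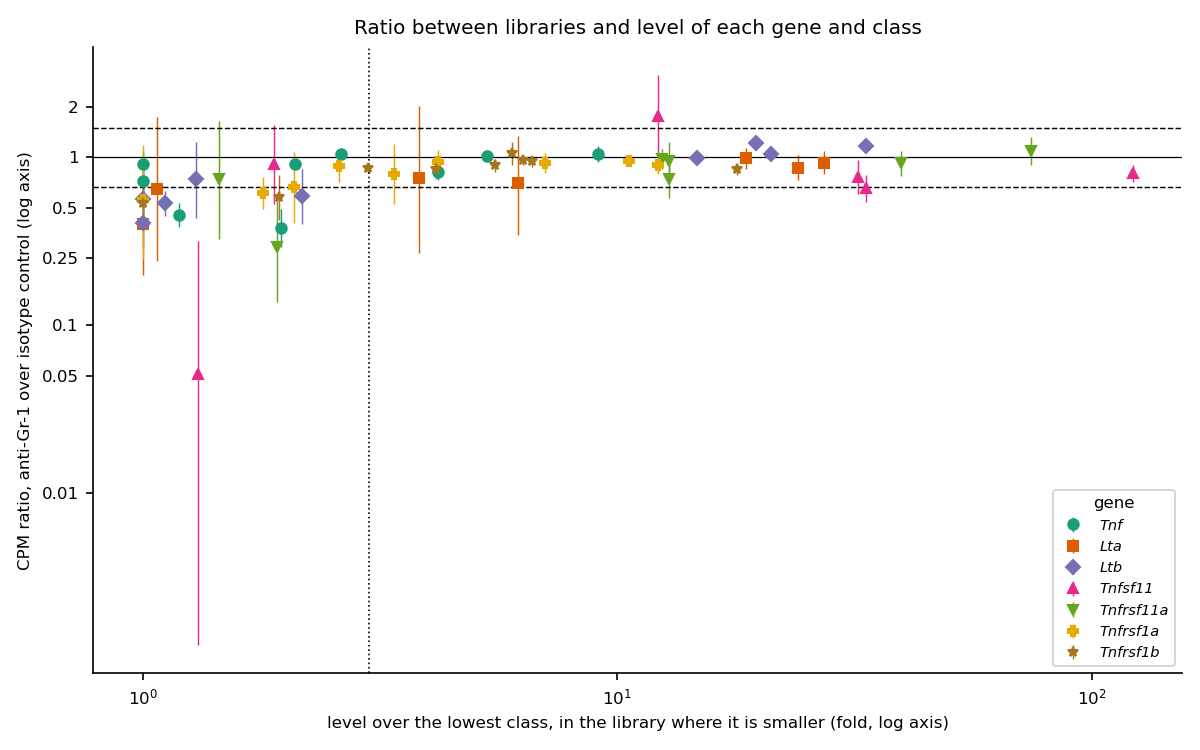
Ratio of CPM, anti-Gr-1 over isotype control, against the level of the gene relative to its lowest class in the library where that is smaller (both axes log), for the 56 pairs of gene and large class with at least 20 UMIs. Bars are 95% conditional intervals, dashed lines mark 1.5-fold and the dotted line marks 3 times the lowest level. Of the 32 pairs at 3 times the lowest level or more in both libraries, 2 lie outside the dashed lines.

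The classes of highest level among the large classes differed less than 1.5-fold between the libraries for all 7 genes. So did the other sources listed next, but not mature dendritic cells as a source of Tnf, which are described below. The ratio of Tnf was 1.05 in mast cells (interval 0.944 to 1.16), 1.02 in gamma-delta type 17 T cells (0.948 to 1.10), 0.820 in macrophages (0.730 to 0.920) and 0.917 in type 2 dendritic cells (0.854 to 0.984). In Langerhans cells, whose Tnf level was above that of every large class, the ratio was 0.715 (0.633 to 0.807). Some classes may have differed in make-up between the libraries. Ly6c2, highest in classical monocytes, had 0.277 CPM in anti-Gr-1 and 47.8 CPM in isotype control macrophages. Cd209a, highest in type 2 dendritic cells, had 62.6 and 140 CPM there. In type 1 dendritic cells Ly6c2 had 6.55 CPM in anti-Gr-1 and 29.9 CPM in isotype control cells. The part of this in the ratios was not tested. Tnfsf11 in gamma-delta type 17 T cells had a ratio of 0.803 (0.715 to 0.903), which was 0.822 within female and 0.635 within male cells, the second past 1.5-fold. Lta in Hlf Bmp2 Rora lymphoid cells had a ratio of 0.931 (0.794 to 1.09). That of Ltb was 1.16 in gamma-delta type 17 T cells (1.12 to 1.21) and 1.22 in regulatory T cells (1.11 to 1.34). Tnfrsf11a in mature dendritic cells had a ratio of 1.09 (0.896 to 1.32) and Tnfrsf1a in macrophages one of 0.906 (0.7996 to 1.02). Tnfrsf1b in regulatory T cells had a ratio of 0.852 (0.784 to 0.927).

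Tnf was lower in a pair of dendritic classes of the anti-Gr-1 library. Mature dendritic cells had 80 Tnf UMIs in 106 anti-Gr-1 cells and 238 UMIs in 202 isotype control cells, or 46.5 CPM (36.9 to 57.8) against 122 CPM (107 to 138), a ratio of 0.382 (0.293 to 0.494). Type 1 dendritic cells had 255 Tnf UMIs in 513 anti-Gr-1 cells and 364 UMIs in 451 isotype control cells, or 28.3 CPM against 62.6 CPM, a ratio of 0.452 (0.384 to 0.532). Few cells held many of these UMIs: in mature dendritic cells, those with at least 10 UMIs held 30% of anti-Gr-1 and 48.3% of isotype control Tnf, and the spread between cells is not part of the intervals.

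The Tnf ratio of these classes was not the same at all depths, a difference that was not tested. Among type 1 dendritic cells with over 12000 UMIs, Tnf had 27.1 CPM in 447 anti-Gr-1 cells and 72.1 CPM in 264 isotype control cells (ratio 0.375, 0.315 to 0.447). With 3000 to 12000 UMIs it had 48.2 CPM in 63 anti-Gr-1 cells and 39.4 CPM in 179 isotype control cells (ratio 1.22, 0.745 to 1.96), an interval that includes 1. In mature dendritic cells over 12000 UMIs the ratio was 0.675 (0.485 to 0.941). With 3000 to 12000 UMIs it was 0.0736 (0.0150 to 0.219), where 23 anti-Gr-1 cells held 3 Tnf UMIs and 110 isotype control cells held 161. Within female cells the Tnf ratio was 0.0712 in mature and 0.306 in type 1 dendritic cells, and within male cells it was 0.368 and 0.475. The summed level of 8 immediate early genes, which tissue digestion can raise, had a ratio of 0.736 in mature and 0.965 in type 1 dendritic cells, and that of 4 heat shock genes 0.673 and 0.764. The part of these in the Tnf ratios was not tested.

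In type 1 dendritic cells 4 of the 6 genes with at least 20 UMIs were at least 1.5-fold lower in the anti-Gr-1 library, where 10.3% of all genes were. Besides Tnf these were Ltb (ratio 0.404), Tnfrsf1b (0.532) and Lta (0.645, from 10 UMIs in each library). Within male type 1 dendritic cells Ltb had a ratio of 0.680 and Tnfrsf1b one of 0.755, both less than 1.5-fold lower, and within female cells 0.370 and 0.466. In mast cells 3 of 4 were lower, with 11.5% of all genes: Tnfrsf1a (0.555), Tnfrsf1b (0.577) and Ltb (0.585). Within male mast cells none of these was 1.5-fold lower: Tnfrsf1b had a ratio of 0.8001, Ltb one of 0.996, and Tnfrsf1a had 6 anti-Gr-1 UMIs against 1 isotype control UMI. Within female mast cells Tnfrsf1b had a ratio of 0.312 and Ltb one of 0.868. In dendritic epidermal T cells 3 of 7 were lower, with 11.5% of all genes, namely Tnfrsf11a (0.292), Tnfrsf1a (0.617) and Tnfsf11 (0.652, 0.542 to 0.782). The Tnfsf11 ratio there was 0.315 within female and 0.877 within male cells, so that the 1.5-fold difference was not seen in male cells. In all these pairs but Tnfsf11 of the dendritic epidermal T cells, the gene was under 3 times its lowest level in both libraries. The median log2 ratio of the measured genes was -0.77 in type 1 dendritic cells and -0.78 in mast cells, against -0.09 and -0.03 over all genes.

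The ratio furthest from 1 rested on a single cell. Tnfsf11 in mature dendritic cells had 1 (anti-Gr-1) and 22 (isotype control) UMIs (ratio 0.0516, 0.00125 to 0.319), and 1 isotype control cell held 19 of its UMIs. The pair that was higher in the anti-Gr-1 library was Tnfsf11 in regulatory T cells, with 30 UMIs or 14.8 CPM (10.0 to 21.2) against 28 UMIs or 8.40 CPM (5.58 to 12.1) in the isotype control library, a ratio of 1.77 (1.02 to 3.07). With each cell given equal weight this ratio was 0.776.

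Of monocytes and neutrophils the anti-Gr-1 library held few cells, 22 classical monocytes, 24 non-classical monocytes and 5 neutrophils, against 235, 79 and 148 in the isotype control library. Tnfrsf1a had 118, 114 and 176 CPM in these classes of the anti-Gr-1 library, against 203, 246 and 342 CPM in the isotype control library. As point values these were all above every large class of their library. The anti-Gr-1 values came from 38, 18 and 5 UMIs, too few to set them apart from macrophages at 101 CPM. Tnfrsf1b was 335 CPM in anti-Gr-1 and 465 CPM in isotype control cells in non-classical monocytes. It was 159 CPM in anti-Gr-1 and 280 CPM in isotype control classical monocytes. Neutrophils had 70.5 CPM of it in anti-Gr-1 cells, from 2 UMIs, and 314 CPM in isotype control cells. Tnf was lower in classical monocytes, with 59.2 CPM in anti-Gr-1 and 174 CPM in isotype control cells (ratio 0.341, 0.202 to 0.541). In non-classical monocytes it was higher, with 297 CPM in anti-Gr-1 and 72.0 CPM in isotype control cells (ratio 4.12, 2.56 to 6.71), from 47 (anti-Gr-1) and 31 (isotype control) UMIs, of which 1 anti-Gr-1 cell held 20. Ltb was higher there as well, with 196 CPM in anti-Gr-1 and 65.1 CPM in isotype control cells (ratio 3.01, 1.75 to 5.21), and 1 anti-Gr-1 cell held 14 of its 31 UMIs. In neutrophils Tnf had 37 UMIs in 5 anti-Gr-1 cells (1305 CPM), of which 34 lay in 1 cell, and 70 UMIs in 148 isotype control cells (247 CPM).

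Other genes of the pathway were taken from lists of ligands, receptors and signalling genes. Over the 9 classes, 5 of 64 pairs of other TNF superfamily ligands with at least 20 UMIs were at least 1.5-fold higher in anti-Gr-1 cells, whereas 20 were lower (39.1% in all). Of 138 pairs of other receptors 2 were higher and 42 lower (31.9%). Of 189 pairs of adaptors and kinases 1 was higher and 13 lower (7.41%), and of 117 pairs of NF-kB subunits and feedback genes 9 were lower (7.69%). Of 69 pairs of genes of TNF shedding and mRNA control 1 was higher and 6 lower (10.1%), and of 29 pairs of RANK response genes 4 were lower (13.8%). These shares stand beside the 14.9% of all genes.

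Among the ligands, Tnfsf9 (4-1BB ligand, a costimulator of T cells) was lower in macrophages, at 82.9 CPM in the anti-Gr-1 and 168 CPM in the isotype control library (ratio 0.492, 0.433 to 0.559). In type 1 dendritic cells it was at 28.6 CPM in the anti-Gr-1 and 57.5 CPM in the isotype control library (ratio 0.498, 0.422 to 0.588). The lowest Tnfsf9 level of the large classes was also lower in the anti-Gr-1 library. It was 8.93 CPM in anti-Gr-1 mast cells and 23.0 CPM in isotype control dendritic epidermal T cells. Type 2 dendritic cells, the class of highest Tnfsf9 level, had 599 CPM in anti-Gr-1 and 682 CPM in isotype control cells. The part of free RNA in the Tnfsf9 ratios was not tested. Cd40lg (CD40 ligand, which T cells use to activate antigen-presenting cells) was higher in gamma-delta type 17 T cells, at 23.3 CPM in the anti-Gr-1 and 7.98 CPM in the isotype control library (ratio 2.92, 2.18 to 3.94). This was not confined to that class, as dendritic epidermal T cells had 27.8 CPM in anti-Gr-1 and 14.3 CPM in isotype control cells. Tnfsf8 (CD30 ligand) was higher in gamma-delta type 17 T cells, at 18.3 CPM in the anti-Gr-1 and 6.16 CPM in the isotype control library (ratio 2.96, 2.13 to 4.17), with at most 19 UMIs in an anti-Gr-1 cell and 8 in an isotype control cell. Of the receptors, Tnfrsf4 (OX40) was highest in regulatory T cells, at 1091 CPM in anti-Gr-1 and 805 CPM in isotype control cells, and Ltbr, the receptor of the lymphotoxin heterotrimer, in macrophages, at 39.4 CPM in anti-Gr-1 and 41.3 CPM in isotype control cells. Traf1, an adaptor of TNF receptors, was highest in mature dendritic cells, at 823 CPM in anti-Gr-1 and 787 CPM in isotype control cells, as was Relb, an NF-kB subunit, at 545 CPM in anti-Gr-1 and 488 CPM in isotype control cells.

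Genes whose class pattern was most like that of each member were ranked by the lower of the Pearson r of log2(CPM + 5) in the 2 libraries, over the 9 large classes and 12626 genes. For Ltb they were Bcl11b, Ets1, Zbtb25, Sept1 and Trp53i11 (lower r 0.995 to 0.986). For Lta they were Ly6g5b, Tcf7, Ehd3, Fam83a and Bik (0.975 to 0.957), and for Tnfsf11 Ubxn4, Sdf2, B930036N10Rik, Smox and Il18r1 (0.941 to 0.921). For Tnfrsf11a they were Eps15, Hlx, Zswim7, Tspan3 and Zfp111 (0.916 to 0.901), for Tnfrsf1a Sgpp1, G6pdx, Gltp, Fam71a and Dmac1 (0.946 to 0.910) and for Tnfrsf1b Krit1, 2310001H17Rik, Fas, Spen and Ifi27 (0.918 to 0.892). Tnf had Enpp4, Zfp870, Ttc17, Arl2 and Ppp1r15a, with lower r from 0.820 to 0.803.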

How the data were processed

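The authors deposited raw UMI counts per gene and cell barcode. Per the file headers these come from Cell Ranger 4.0.0, and the build was mm10 per the submitters' processing notes. The 2 libraries held 9110 (anti-Gr-1) and 21311 (isotype control) barcodes with 85142470 and 125253392 UMIs. Barcodes with at least 500 UMIs, at least 200 genes and under 10% mitochondrial UMIs were kept. Each cell was gated by marker lists, and cells that passed several lineages were set aside as mixed, the only removal of doublets in the reported values. Counts of a class were summed and given as CPM with exact Poisson intervals, shares of cells with Clopper-Pearson intervals, and ratios with exact conditional intervals. A difference of at least 1.5-fold with at least 20 UMIs over both libraries was counted, over all genes as well. Shares were thinned to 1500 UMIs per cell. Pathway genes were named when they were highest in a lineage or differed at least 2-fold with at least 50 UMIs, at most 4 per list, of which some are given. The ratio and interval code was tested on simulated data. Members, lists and rules were chosen with earlier results of these data known, and gate thresholds were set after the cells had been seen. Gates, doublet removal, depth, minimum, scaling, cell weight, mitochondrial limit, sex and subtraction of the lowest class were varied. Python 3.11.15, numpy 2.4.6, scipy 1.17.1, pandas 2.3.3, scanpy 1.11.5 and matplotlib 3.10.9 were used.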

Additional observations from a re-analysis of the deposited data

How the results depend on the processing

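The count of member and class pairs past 1.5-fold was 16, of 56 with at least 20 UMIs. It was 9 in male cells only (2 higher and 7 lower) and 6 with a 2-fold rule (0 higher and 6 lower), and lay between 11 and 21 under the other alternatives. Shares of all genes are not given for these alternatives. The counts thus do not show whether the 7 genes stood out there. The class of highest level was shared by the libraries for 7 of 7 genes under every alternative in which it was computed, except 6 of 7 with cells thinned to 1500 UMIs. The Tnfsf11 ratio in regulatory T cells changed direction, to 0.963 with the highest doublet scores removed, 0.776 with each cell at equal weight and 0.810 in cells of 3000 to 12000 UMIs. The Tnf ratio in type 1 dendritic cells was 1.22 in cells of that depth, a range chosen after seeing the data. The Lta ratio in type 1 dendritic cells was 1.53 in the same range, 1.13 in male cells (6 anti-Gr-1 and 2 isotype control UMIs) and 4.78 with the lowest class subtracted. The Ltb ratio in macrophage cells was 1.07 in female cells (9 anti-Gr-1 and 32 isotype control UMIs, interval 0.451 to 2.30), and the Ltb ratio in type 2 dendritic cells was 1.39 with the lowest class subtracted. The Tnfrsf1a ratio in mast cells was 1.45 in female cells (5 anti-Gr-1 and 6 isotype control UMIs, interval 0.349 to 5.69) and 4.05 in male cells (6 and 1 UMIs, 0.491 to 186), both under the minimum of 20 UMIs. The cause of these changes was not tested. The Tnf ratio in mature dendritic cells lay between 0.0712 and 0.414 under 10 alternatives, but was 0.675, less than 1.5-fold, in cells over 12000 UMIs, which held 77 of the 80 anti-Gr-1 Tnf UMIs. With 1 library per treatment, animals, treatment and library cannot be told apart. No paired analysis was possible because each treatment had 1 library.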

Other observations

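The Tnf ratio in macrophages, anti-Gr-1 over isotype control, was 0.392 in female cells and 0.966 in male cells, a difference that was not tested. Timp3, an inhibitor of the protease that sheds TNF, had 9.79 CPM in anti-Gr-1 and 0.735 CPM in isotype control type 2 dendritic cells, and 1 anti-Gr-1 cell held 184 of its 197 UMIs.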
